A study of Homo sapiens with 6 samples.

Results

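The genes described are the 3 IGF2BP paralogs (IGF2BP1, IGF2BP2 and IGF2BP3) and 5 genes linked with them in fetal tissue and in cancer (LIN28B, HMGA1, HMGA2, GPC3 and CD44). They were chosen by name and are 8 of the 32943 genes in the deposited count table. Each symbol matched 1 row. RNA was sequenced from 6 libraries of cells labelled AGS, a line derived from a human gastric adenocarcinoma. In 3 libraries the cells had received a control plasmid, whose make-up the labels do not give further. In the other 3 they had received a pcDNA3.1-3xFlag-IGF2BP3 plasmid, which carries IGF2BP3 with a Flag tag. All cells were transfected with Lipofectamine 3000, cultured in the same medium and harvested after 48 h. The sources used here do not say whether replicates were separate cultures, nor what share of the cells took up a plasmid. The p-values therefore cover only how these libraries vary, and that variation may be technical. In such bulk RNA, fewer expressing cells and less RNA per cell cannot be told apart.

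IGF2BP proteins bind mRNAs in the cytoplasm, including mRNAs with the m6A mark, and are known to shield them from decay and to steer their translation. IGF2BP1 and IGF2BP3 are oncofetal: they are active in the embryo, largely silent in most adult tissues and often active again in tumours. LIN28B blocks the maturation of the let-7 microRNAs, and let-7 is known to repress LIN28B, HMGA2 and IGF2BP mRNAs, so these genes are often described as 1 fetal circuit. HMGA1 and HMGA2 are small chromatin proteins that bind AT-rich DNA. GPC3 is a heparan sulfate proteoglycan of the cell surface that is used as a marker of fetal liver and liver tumours, and CD44 is the receptor for hyaluronan and a marker of gastric cancer stem-like cells.

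The labelled cell type was set against marker lists. Levels are given as CPM, counts scaled to the library sizes after TMM normalization. Of 16 gastric epithelial markers, 11 had a row and 2 reached a mean of 1 CPM, CTSE and PGC. MUC5AC, TFF2, SOX2 and CLDN18 had at most 4 counts in any library. Of 17 hepatocyte and fetal liver markers, 16 reached 1 CPM, and ALB, which encodes albumin, was at 1458 to 1545 CPM in the control libraries. The data therefore went against the gastric label, and the cells are called the labelled cells below. Of 10 intestinal markers 6 reached 1 CPM, and 5 of the 6 tested fell with the IGF2BP3 plasmid (summed level 468 to 488 CPM in controls and 380.5 to 388 CPM with it). Most of this sum was 1 gene, VIL1 (421.5 to 437.5 CPM in controls and 347.7 to 356.3 CPM with the plasmid). Of all genes tested, 19.2% passed as lower. Of 10 fibroblast and smooth muscle markers 4 reached 1 CPM, and of 8 tested 4 fell and 1 rose (270 to 279 and 195 to 221 CPM). The largest part of this sum was LUM (157.2 to 172.2 CPM in controls and 91.5 to 103.6 CPM with the plasmid). Markers of endothelial cells were near 0 (summed level at most 0.899 CPM). Of 9 leukocyte markers 4 reached 1 CPM, and of 5 tested 2 fell and 1 rose. Their summed level was 80.5 to 87.3 CPM in controls and 32.5 to 43.6 CPM with the IGF2BP3 plasmid. Most of this sum was 1 gene, CD14 (65.6 to 72.1 CPM in controls and 20.4 to 29.7 CPM with the plasmid). The pan-leukocyte marker PTPRC had at most 9 counts.

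Library totals were 33555366 to 37633587 counts, so 1 count was worth 0.0267 to 0.0298 CPM. Control replicate 1 and overexpression replicate 3 lay farthest out in their groups on the first principal component (−36.1 against −22.1 and −23.4, and 36.8 against 20.8 and 24.1). Values without both are given where a result rests on them. That fit keeps the closer libraries of each group, a choice made after seeing the data. Its adjusted p can therefore come out too small and is not stronger evidence.

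The let-7 family is shown because its seed, bases 2 to 8, sets which mRNAs it can pair with and because LIN28B controls it. The polyA libraries do not measure mature microRNAs, so these sequences describe a shared feature of the genes and not a measurement. RefSeq (GRCh38.p14) lists 9 mature human sequences of the family, and all 9 have the same seed. Of these, 3 are printed, with the seed in capitals, to show that they differ only outside it or in the first base:
let-7a-5p: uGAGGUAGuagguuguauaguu
let-7d-5p: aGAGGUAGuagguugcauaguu
miR-98-5p: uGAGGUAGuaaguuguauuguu

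The letters that pair with this seed, CTACCTC, were searched on the sense strand in the 3′ untranslated region (UTR) of 1 principal transcript per gene in GENCODE release 29 (GRCh38). They occurred in 6 of the 8 genes at 15 places, and in 8.57% of 19151 protein-coding genes. There were 4 matches each in IGF2BP1, LIN28B and HMGA2 and 1 each in IGF2BP2, IGF2BP3 and HMGA1. GPC3 and CD44 had 0. These UTRs differ in length, from 379 nt in GPC3 to 6206 nt in IGF2BP1, and a match was found in 29.7% of UTRs of a length like that of IGF2BP1, 23.6% for LIN28B, 14.8% for HMGA2 and 11.9% for IGF2BP3. Another annotated HMGA2 transcript has a UTR of 7421 nt, which held 0 matches. Of the 15 matches, 8 are followed by A. For each gene with a match the one nearest to the stop codon is printed, from 15 bases before it to 1 after, with the match in capitals:
IGF2BP1, chr17:49051061-49051083, plus strand: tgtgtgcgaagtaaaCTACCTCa
IGF2BP2, chr3:185644220-185644242, minus strand: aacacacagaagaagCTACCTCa
IGF2BP3, chr7:23311795-23311817, minus strand: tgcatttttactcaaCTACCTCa
LIN28B, chr6:105078812-105078834, plus strand: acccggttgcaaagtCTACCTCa
HMGA1, chr6:34245829-34245851, plus strand: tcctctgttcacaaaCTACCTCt
HMGA2, chr12:65963298-65963320, plus strand: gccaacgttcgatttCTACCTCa
A match is a run of letters and was not tested as a site. Of the genes with matches other than IGF2BP3, LIN28B rose and HMGA2 fell, with 4 matches each, as the values below show. IGF2BP1, also with 4 matches, and IGF2BP2 and HMGA1, with 1 each, did not pass in either direction. Whether let-7 had a part in any of these changes was not tested. Whether the plasmid's IGF2BP3 insert carries the UTR is not stated in the sources used here.

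**Figure D1:**
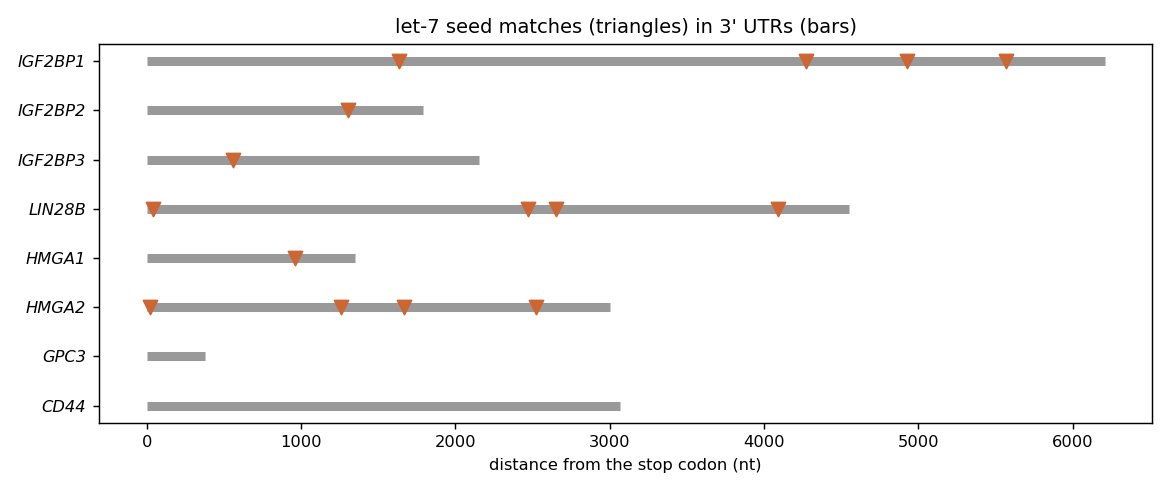
Place of each let-7 seed match (triangle) along the 3′ UTR (bar) of the 8 genes, as distance from the stop codon in nt. The triangles lie in 6 genes, with 4 each in IGF2BP1, LIN28B and HMGA2, and none lie in GPC3 and CD44.

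Of the 8 genes, 7 could be tested and 4 differed between the groups. IGF2BP3 and LIN28B were higher with the IGF2BP3 plasmid, and HMGA2 and GPC3 were lower. IGF2BP1, IGF2BP2 and HMGA1 did not pass, and CD44 had too few counts to test. The test was edgeR's quasi-likelihood F test over 17747 genes, with Benjamini-Hochberg adjusted p under 0.05 as the threshold, and 37.7% of all genes tested passed it (18.5% higher and 19.2% lower). With so large a background, 4 calls among 7 genes say little of the set. A change of at least 1.5-fold that passed was found for 2 of the 7, IGF2BP3 and GPC3, and for 9.43% of all genes tested. The groups did not overlap for 6 of the 7 genes tested, which held for 50.6% of all genes tested.

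**Figure D2:**
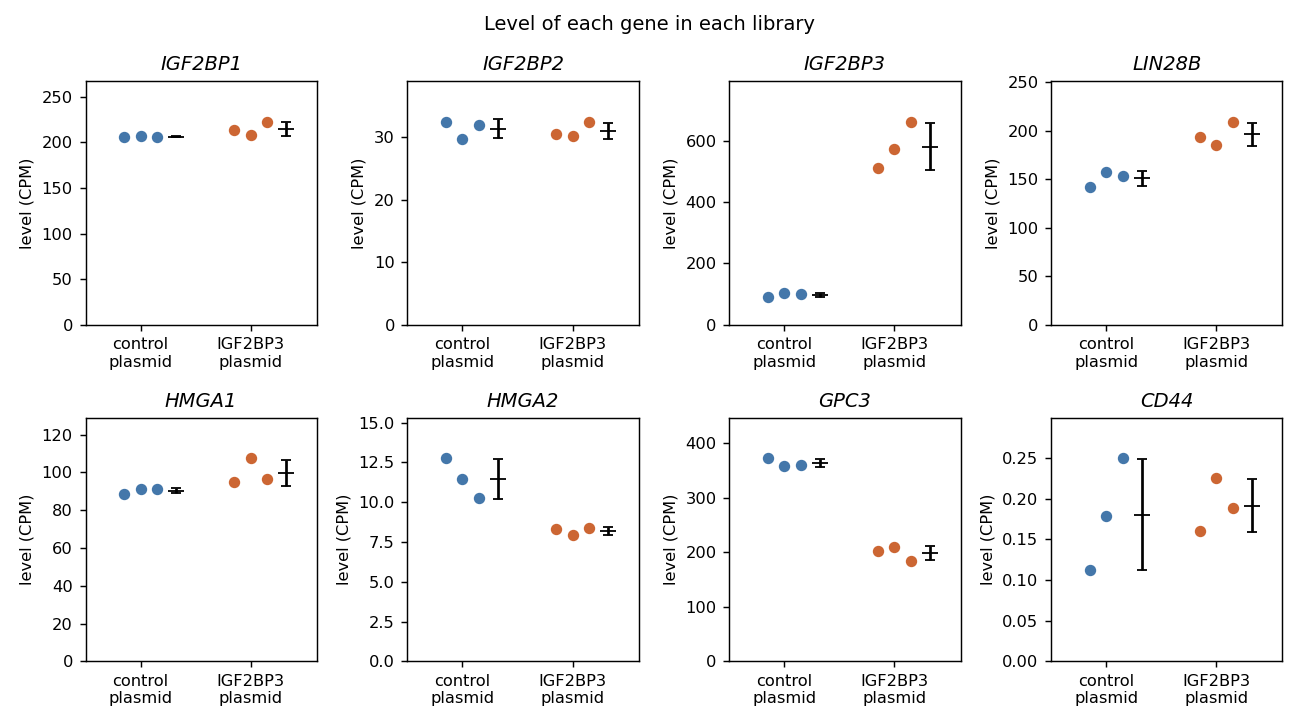
Level of the 8 genes in CPM (y axes from 0, each with its own range) in 3 control plasmid libraries (blue) and 3 IGF2BP3 plasmid libraries (orange), with mean ± SD beside the points. IGF2BP3 and LIN28B lie higher in all 3 IGF2BP3 plasmid libraries, HMGA2 and GPC3 lie lower, and CD44 stays under 0.25 CPM throughout. IGF2BP1 and HMGA1 also lie higher in all 3, by less, and did not pass the test.

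IGF2BP3 (ENSG00000136231.14, on the minus strand of chromosome 7 in GRCh38, from 23310209 to 23470467) is the transfected gene and checks the labels. Its deposited counts were 3221, 3421 and 3614 in the control libraries and 19087, 20345 and 24718 with the IGF2BP3 plasmid. The labels therefore matched in all 6 libraries, and cells with the control plasmid held the transcript too. As a level it was at 90.5, 102 and 100.1 CPM in controls and at 510.5, 573 and 663 CPM with the plasmid. The fold was 5.97 (log2 fold change 2.58 ± 0.08 SE, adjusted p = 1.278e-08 by edgeR), and an exact two-sided permutation test gave p = 0.1, the smallest that 3 against 3 libraries allow. Overexpression replicate 3, which stands apart, had the highest level. Without it the log2 fold change was 2.47, and without it and control replicate 1 it was 2.42. Counts per gene do not separate plasmid transcripts from those of the cells' own gene.

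IGF2BP1 (ENSG00000159217.10; chromosome 17, 48997412 to 49055650, plus strand), the paralog most often described with MYC and beta-actin mRNA, was the paralog with the highest level in controls. It was at 206, 207 and 206 CPM in controls and at 213, 208 and 223 CPM with the plasmid. All 3 plasmid libraries lay above the controls, by little. The log2 fold change of 0.06 ± 0.04 (SE) did not pass (edgeR adjusted p = 0.27), nor did it under any of 20 alternative settings (adjusted p = 0.11 to 1).

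IGF2BP2 (ENSG00000073792.16; chromosome 3, 185643739 to 185825056, minus strand), the paralog that stays active in many adult tissues, was at 32.4, 29.6 and 31.9 CPM in controls. It was at 30.4, 30.1 and 32.4 CPM with the plasmid, so the groups overlapped. Its log2 fold change was −0.02 ± 0.06 (edgeR adjusted p = 0.86).

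Levels of the paralogs were compared with each other per length, with the authors' FPKM. In controls the order of the paralogs was IGF2BP1 at 17.9 ± 0.433, IGF2BP3 at 9.54 ± 0.807 and IGF2BP2 at 4.90 ± 0.205 FPKM (SD, n = 3), and no neighbours in that order overlapped. IGF2BP3 made up 27.8%, 30.7% and 30% of the summed FPKM of the 3 paralogs in the control libraries and 68.2%, 71.1% and 72.7% with the plasmid. The share rose by 41.2 percentage points, from 29.5 ± 1.48% to 70.7 ± 2.27% (SD, n = 3 each), with no overlap (exact permutation p = 0.1, two-sided, the smallest possible). The summed level of the family was 32.3 ± 1.21 FPKM in controls and 83.4 ± 9.77 FPKM with the plasmid, 2.58 times as high. IGF2BP3 is the transfected gene, so a rise of its share and of this sum was set by the design. Neither is a result separate from the transfection. IGF2BP1 thus went from the largest to the second largest part of the family while its own FPKM stayed between 17.4 and 20.4. FPKM scale by the length of an annotated gene, which may not be that of the plasmid transcript. The level per length of IGF2BP3 with the plasmid, and its share, are less certain for that reason.

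**Figure D3:**
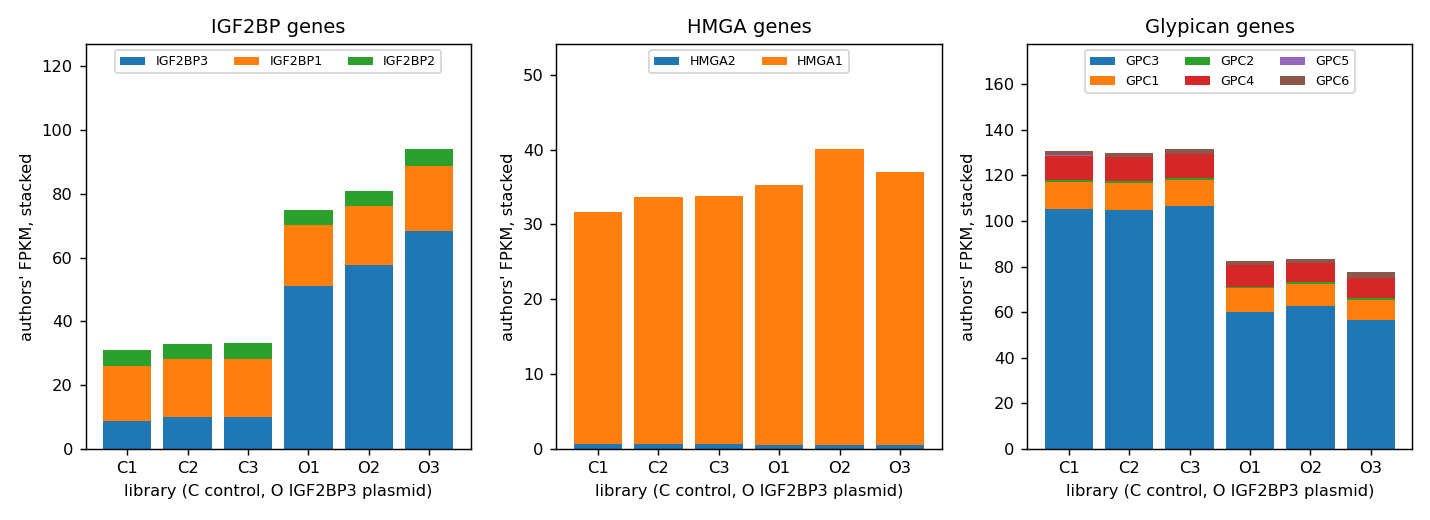
Authors' FPKM of the IGF2BP genes, the HMGA genes and the glypican genes, stacked for each control (C1 to C3) and IGF2BP3 plasmid (O1 to O3) library, with y axes from 0. The IGF2BP3 part grows from 29.5% to 70.7% of its family, HMGA2 is a thin part under HMGA1 in every library, and the GPC3 part shrinks with the plasmid.

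LIN28B (ENSG00000187772.8; chromosome 6, 104936616 to 105083332, plus strand) rose 1.299-fold. The 3 controls held 142, 157 and 154 CPM, and the plasmid libraries 193, 186 and 209 CPM. The lowest plasmid library lay well above the highest control. The log2 fold change was 0.38 ± 0.05 (SE; edgeR adjusted p = 2.208e-04), and 72.3% of genes tested had a smaller absolute log2 fold change. Both outlying libraries widened the gap: without control replicate 1 and overexpression replicate 3 the log2 fold change was 0.29. The libraries left were the closer ones of each group, so the adjusted p of that fit (4.144e-09 by edgeR) overstates the evidence. Tested against a fold of 1.2 instead of 0, LIN28B missed the threshold (edgeR glmTreat adjusted p = 0.059). The antisense transcript LIN28B-AS1 had at most 7 counts in a library, and it is not known whether the counting used the strand.

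Its paralog LIN28A, which also blocks let-7 maturation, was looked up beside it. LIN28A was at 24.9, 24.3 and 24.8 CPM in controls and at 22.9, 22.8 and 22.5 CPM with the plasmid. All plasmid libraries lay lower, but the log2 fold change of −0.12 ± 0.06 did not pass (edgeR adjusted p = 0.14). It passed under upper quartile scaling (adjusted p = 0.047). Per length, LIN28B was the more abundant of the 2 genes in controls (21.2 against 5.18 FPKM).

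HMGA1 (ENSG00000137309.20; chromosome 6, 34236873 to 34246231, plus strand) was at 88.8, 91.4 and 91.0 CPM in controls and at 94.8, 107 and 96.7 CPM with the plasmid. The groups did not overlap, and overexpression replicate 2 was the highest. The log2 fold change of 0.14 ± 0.05 (SE) missed the threshold narrowly (edgeR adjusted p = 0.058). It passed in 6 of 20 alternatives, all in the same direction. These were library totals without TMM (adjusted p = 0.048), no filter (0.018), both FPKM fits (0.032 and 0.032), without overexpression replicate 1 (0.044) and without both outlying libraries (0.0062, with the limit given above). In the FPKM fits the median log2 fold change of all genes was also higher (0.019 and 0.038, against −0.009 in the main test). Without a filter the median of the genes of the main test was 0.015. HMGA1 did not pass in the other 14, among them upper quartile scaling (edgeR adjusted p = 0.18). Without overexpression replicate 2 its log2 fold change was 0.086 (edgeR adjusted p = 0.24). HMGA1 has processed pseudogenes with near-identical sequence, and the 3 looked up, HMGA1P3, HMGA1P4 and HMGA1P8, had at most 15 counts in a library.

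HMGA2 (ENSG00000149948.14; chromosome 12, 65824131 to 65966295, plus strand), the member of the pair that is largely restricted to embryos and tumours, fell 1.40-fold from a low level. It was at 12.8, 11.4 and 10.2 CPM in controls and at 8.32, 7.94 and 8.40 CPM with the plasmid. The plasmid libraries lay close together and below all controls, and control replicate 1 was the highest. The log2 fold change was −0.48 ± 0.10 (SE; edgeR adjusted p = 0.0021). It was −0.41 without both outlying libraries (adjusted p = 0.0011, with the limit given above for that fit). On the log2(FPKM + 1) scale, which understates the change of low genes, it was −0.15 (limma adjusted p = 0.022). Its antisense transcript HMGA2-AS1 had at most 5 counts in a library.

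The HMGA pair was far from even in level. HMGA1 was at 32.4 ± 1.22 FPKM in controls and HMGA2 at 0.637 ± 0.055 FPKM (SD, n = 3). HMGA2 made up 2.18%, 1.90% and 1.72% of their summed FPKM in controls and 1.33%, 1.12% and 1.32% with the plasmid. The mean share fell from 1.93 ± 0.232% to 1.26 ± 0.118% with no overlap, and the exact permutation test gave the smallest possible p of 0.1 (two-sided).

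GPC3 (ENSG00000147257.15; chromosome X, 133535745 to 133985895, minus strand) fell 1.83-fold, the largest change of the 7 tested genes beside IGF2BP3. Controls held 372, 358 and 360.4 CPM, and libraries with the plasmid 201, 209 and 185 CPM. The highest plasmid library was far below the lowest control. The log2 fold change was −0.87 ± 0.05 (SE; edgeR adjusted p = 4.749e-07), with a rank of 15 by p among all genes tested. It was −0.81 without both outlying libraries. GPC3 was also the most abundant of the 8 genes per length in controls, at 105.5 ± 0.969 FPKM. With the plasmid it was at 59.7 ± 2.96 FPKM and overlapped IGF2BP3 at 59.0 ± 8.72 FPKM, the only neighbours in that order whose libraries overlapped. The limit given above for the FPKM of IGF2BP3 with the plasmid holds here too. The hepatocyte and fetal liver markers moved with GPC3: 15 of 16 tested fell and 0 rose, with a summed level of 4561 to 4815 CPM in controls and 2793 to 3111 CPM with the plasmid. Their part in the fall of GPC3 was not tested.

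Among the glypicans, the cell-surface proteoglycan family of GPC3, GPC3 held 80.6%, 80.5% and 81.0% of the summed FPKM in controls and 72.7%, 74.9% and 73.0% with the plasmid (exact permutation p = 0.1, two-sided, the smallest possible). The share fell by 7.17 percentage points, with no overlap. GPC1 (log2 fold change −0.33 ± 0.07), GPC4 (−0.30 ± 0.06) and GPC2 (−0.50 ± 0.14) also passed as lower, each with a smaller fall than GPC3 on the log2 scale. GPC1 and GPC2 were looked up beside the genes named by rule. GPC2 lost its call without overexpression replicate 3 (edgeR adjusted p = 0.057). GPC6 was at 0.09 ± 0.09 and did not pass (adjusted p = 0.43), and GPC5 had at most 10 counts in a library.

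CD44 (ENSG00000026508.20; chromosome 11, 35138870 to 35232402, plus strand) was close to absent. It had 4, 6 and 9 counts in the control libraries and 6, 8 and 7 with the plasmid. Summed over the 3 libraries these are 19 counts in controls (95% exact Poisson interval 11.4 to 29.7) and 21 with the plasmid (13.0 to 32.1). The levels were 0.181 CPM (0.109 to 0.282) and 0.191 CPM (0.118 to 0.291), and these intervals cover counting error only. CD44 did not pass the filter on low counts. Without that filter it did not differ between the groups (log2 fold change 0.10, adjusted p = 0.94 by edgeR), and a moderate change was not detectable at this depth. Gene counts do not show which CD44 splice forms these reads came from.

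**Figure D4:**
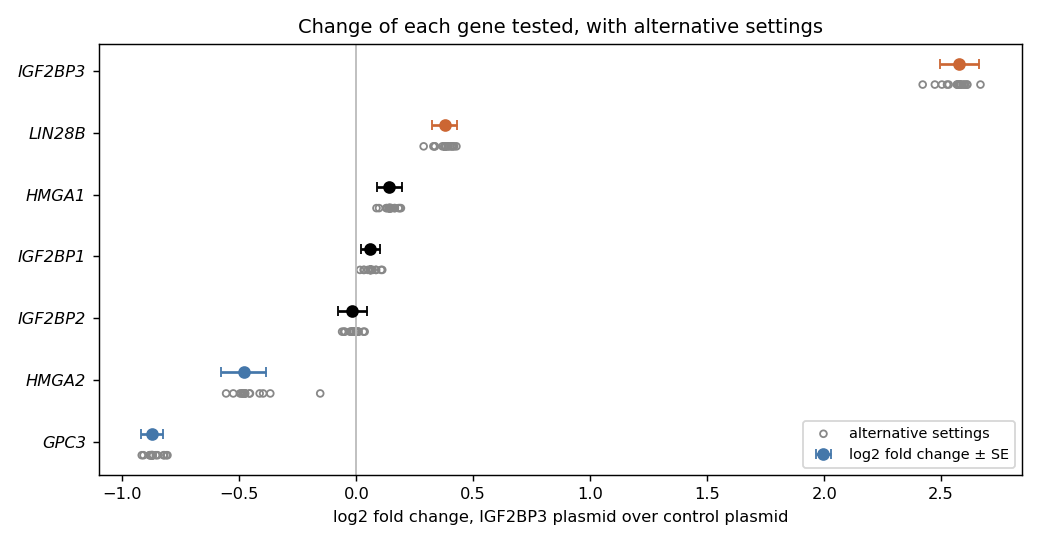
Log2 fold change of the 7 tested genes, IGF2BP3 plasmid over control plasmid (filled points, bars ± SE; orange higher and blue lower with adjusted p under 0.05, black not passed), with the value under each alternative setting as an open circle below. LIN28B stays right of 0 and HMGA2 and GPC3 stay left of 0 in every setting, while IGF2BP2 lies on both sides.

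Genes of the surrounding pathways were counted from 8 lists, with the 8 genes above left out of each count. Over all lists, 130 other genes were tested, 28 rose, 40 fell and 62 did not pass (52.3% called, against 37.7% of all genes tested). Their median log2 fold change was −0.03, against −0.01 over all genes tested. The larger number of lower genes depended on the setting. On log2(FPKM + 1) 28 were higher and 27 lower, and on log2(FPKM + 0.1) 27 and 24. In both FPKM fits, 58.2% of all genes called were higher, against 49.1% in the edgeR test above. Without a filter on low counts, 33 list genes were higher and 35 lower. Under upper quartile scaling the gap widened, to 24 higher and 47 lower. More list genes were lower than higher each time a single library was left out.

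The list of let-7 processing and the LIN28 pathway holds genes that act in cutting, export, tailing and loading of the microRNA. It also holds other genes of the pathway, such as LIN28A and TRIM71. Of 15 genes tested, 6 rose and 2 fell, with a median log2 fold change of 0.06. The export receptor gene XPO5 rose from 51.7 ± 1.47 to 64.7 ± 4.99 CPM (log2 fold change 0.32 ± 0.06, adjusted p = 0.0013 by edgeR), and the nuclease gene DROSHA from 44.0 ± 1.08 to 51.0 ± 2.48 CPM (0.21 ± 0.05). TRIM71, a let-7 target that acts in early embryos, fell from 34.7 ± 1.39 to 30.2 ± 1.22 CPM (−0.20 ± 0.06), and AGO4, an Argonaute gene, from 13.7 ± 1.18 to 10.6 ± 2.10 CPM (−0.36 ± 0.13). The nuclease gene DICER1, looked up, was at 0.18 ± 0.07 and did not pass (adjusted p = 0.064). These small changes were fragile: 5 genes and not 8 were called without control replicate 2 or 3 or without overexpression replicate 1 or 2, and AGO4 lost its call without each of them. TRIM71 lost it without control replicate 2 or overexpression replicate 2 (adjusted p = 0.085 and 0.086) and without a filter on low counts (0.064). In both FPKM fits TRIM71 (0.15 and 0.14) and AGO4 (0.16 and 0.16) were not called, and AGO4 was not called with library totals either (0.052).

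Reported let-7 targets did not move one way. Of 23 tested, 5 rose and 5 fell, with a median of −0.03. The growth regulator gene MYC rose from 67.4 ± 2.01 to 121 ± 9.18 CPM (a log2 fold change of 0.84 ± 0.06, adjusted p = 2.141e-06 by edgeR). The transcription factor gene ARID3A fell from 308 ± 12.3 to 201 ± 13.5 CPM (−0.61 ± 0.05), the insulin receptor gene INSR from 93.9 ± 1.63 to 71.8 ± 2.42 CPM (−0.39 ± 0.05) and the cyclin D1 gene CCND1 from 472 ± 5.30 to 383 ± 12.8 CPM (−0.30 ± 0.04).

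Of 24 tested genes for proteins found with IGF2BP in RNA granules, 9 rose and 2 fell, with a median of 0.06. The decay helicase gene UPF1 rose from 283 ± 7.61 to 388 ± 15.8 CPM (log2 fold change 0.46 ± 0.04, adjusted p = 1.058e-05 by edgeR). SYNCRIP (0.33 ± 0.05) and HNRNPU (0.24 ± 0.04), both described in the IGF2BP1 complex on MYC mRNA, rose too. The helicase gene MOV10 fell from 80.0 ± 2.33 to 60.6 ± 4.16 CPM (−0.40 ± 0.06), and STAU2, for a double-stranded RNA-binding protein, had −0.24 ± 0.07. STAU2 lost its call without control replicate 2 or 3 or overexpression replicate 2 (adjusted p = 0.060, 0.099 and 0.096), without a filter on low counts (0.056) and in both FPKM fits (0.18 and 0.18).

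Of 23 tested mRNAs reported as IGF2BP targets, 6 rose and 9 fell, with a median of −0.07. Besides MYC, SRF, a transcription factor gene of the actin cytoskeleton, rose from 58.7 ± 2.61 to 74.3 ± 1.94 CPM (log2 fold change 0.34 ± 0.05, adjusted p = 3.293e-04 by edgeR). IGF2, the growth factor gene that gave the family its name, fell from 604 ± 36.1 to 336 ± 43.4 CPM (−0.85 ± 0.08), and TK1, which encodes thymidine kinase, from 107 ± 5.22 to 68.2 ± 7.63 CPM (−0.66 ± 0.07). The 4 described genes on this list were split as well: LIN28B rose, HMGA2 fell, HMGA1 did not pass and CD44 was not tested.

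Oncofetal genes fell more often than they rose. Of 15 tested, 1 rose and 8 fell, with a median of −0.16. AFP, the fetal plasma protein gene, fell from 530.2 ± 27.97 to 182 ± 22.8 CPM (log2 fold change −1.54 ± 0.08, adjusted p = 2.539e-07 by edgeR). H19, a fetal noncoding RNA next to IGF2, looked up, fell from 13.8 ± 0.951 to 6.97 ± 0.689 CPM (−0.98 ± 0.10). TPBG, the trophoblast glycoprotein gene, was the 1 that rose, from 18.8 ± 1.00 to 22.4 ± 1.17 CPM (0.26 ± 0.07), and it missed the threshold without control replicate 2 (adjusted p = 0.050). AFP is also on the list of hepatocyte and fetal liver markers, whose fall is given with GPC3.

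In the list of glypicans, syndecans and heparan sulfate synthesis, 1 of 17 tested genes rose and 8 fell, with a median of −0.20. SDC2, a syndecan gene, fell from 227 ± 11.6 to 192 ± 8.92 CPM (log2 fold change −0.24 ± 0.05, adjusted p = 0.0026 by edgeR). HS6ST2, a heparan sulfate sulfotransferase gene, rose from 34.1 ± 3.26 to 41.3 ± 4.67 CPM (0.28 ± 0.09). Its call rested on the outlying libraries, with 0.11 and an adjusted p of 0.13 without both, and 0.062 and 0.10 without control replicate 1 or overexpression replicate 3 alone. With limma on the authors' FPKM 5 genes (pseudocount 1) or 4 (pseudocount 0.1) were called in this list, all lower.

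In the list around CD44, 2 of 15 tested genes rose and 7 fell, with a median of −0.20. EZR, which encodes ezrin, the linker of CD44 to actin, rose from 362 ± 11.2 to 477 ± 3.82 CPM (log2 fold change 0.40 ± 0.04, adjusted p = 1.168e-05 by edgeR). SPP1, which encodes the CD44 ligand osteopontin, fell from 32.1 ± 1.75 to 17.4 ± 1.89 CPM (−0.88 ± 0.08). ESRP1 and ESRP2, regulators of CD44 splicing in epithelia, fell by 0.42 ± 0.05 and by 0.20 ± 0.05 on the log2 scale. With both FPKM fits 5 genes were called here, and ESRP2 was not among them (limma adjusted p = 0.052 in both).

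Among 7 other tested genes of the HMG families, 1 rose and 3 fell, with a median of −0.11. HMGN3 (log2 fold change −0.36 ± 0.05, adjusted p = 1.409e-04 by edgeR) and HMGB2 (−0.26 ± 0.05) fell and HMGN4 (0.24 ± 0.06) rose.

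**Figure D5:**
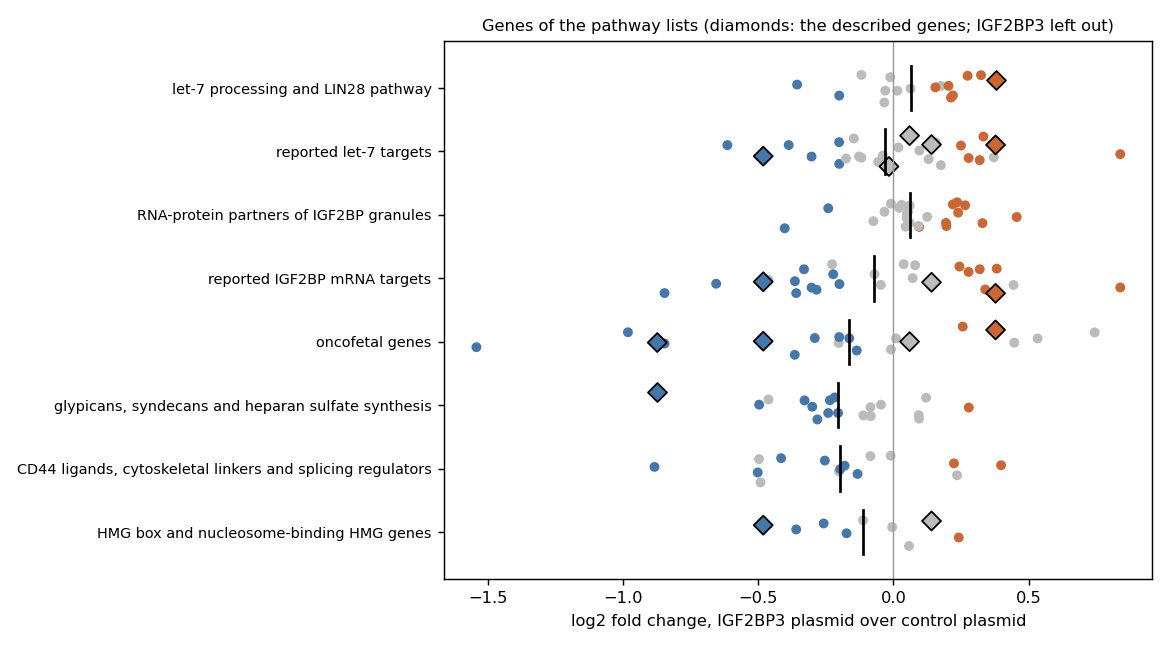
Log2 fold change (IGF2BP3 plasmid over control plasmid) of each tested gene in the 8 lists, 1 point a gene (orange higher and blue lower with adjusted p under 0.05, grey not passed), with vertical bars at the median of the genes other than the 8 described and diamonds for these. IGF2BP3 itself is left out; LIN28B lies at 0.38, HMGA2 at −0.48 and GPC3 at −0.87.

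Genes with a pattern like that of IGF2BP3 were ranked by Pearson r of log2 CPM over the 6 libraries, among 10733 genes with a symbol and a mean of at least 5 CPM. The 3 highest were CNOT10, a subunit of the deadenylase complex, the chaperone gene HSPA8 and the noncoding RNA GAS5 (r = 0.9995 each). The 3 lowest were the kinase gene DAPK1 (r = −0.9996), the mitochondrial MT-ND5 (−0.9995) and NID2, a basement membrane gene (−0.9994). An r over 0.9 was reached by 2191 genes and an r under −0.9 by 1791, so such values are common here. Among the described genes r with IGF2BP3 was 0.96 for LIN28B, 0.78 for HMGA1, 0.76 for IGF2BP1, −0.13 for IGF2BP2, −0.94 for HMGA2 and −0.997 for GPC3. All points share the 6 libraries and their 2 groups, so these values describe the pattern only.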

How the data were processed

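Gene expression was measured in 6 polyA, strand-marked RNA-seq libraries (1 μg of total RNA each, 150 nt paired-end reads), per the labels' protocols. HISAT2, DESeq2 and GRCh38 are named, without versions, per the submitters' processing notes. The sources used here do not name the counter, its strand setting or its annotation. The authors deposited raw counts per gene (32943 genes) and FPKM rounded to 2 decimals (32477 genes). Libraries were grouped by title. Every pair of libraries differed by more than sampling noise (lowest chi-square per gene 2.04), so none was taken for a library deposited again. This does not tell separate cultures from separate preparations of the same RNA.

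The test on counts was that of edgeR 4.0.16 (R 4.3.3): filterByExpr (minimum count 10, minimum total 15), TMM, quasi-likelihood F test, 2 groups and no other term, Benjamini-Hochberg over the 17747 genes tested. Each SE is the log2 fold change divided by the root of F. FPKM were used for levels between genes and shares, and, with limma 3.58.1, as an alternative on log2(FPKM + 1) and log2(FPKM + 0.1). MATR3 has 2 rows, and the larger was used. On counts simulated for this comparison (17509 genes tested), 74% of 100 genes changed 2-fold and 56% of 100 changed 1.3-fold were recovered, with 3.7% false calls. No other genes were changed in the simulation, while 37.7% of genes tested passed in the data. The adjusted threshold was therefore stricter in the simulation, and these rates do not carry over to the data.

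The genes described and the 8 pathway lists and 6 cell type lists were chosen with earlier results of these data known. Named besides the 8 genes are, of each pathway list, up to 3 genes with the smallest p past the threshold in each direction, and the 3 highest and 3 lowest by r with IGF2BP3. A gene that this rule names in the list around CD44 is not reported here. Genes marked as looked up were added after the values were seen. Alternatives were other scalings and filters, DESeq2 1.42.0, limma-voom, FPKM, a replicate block, each library left out, adjusted p under 0.01 and edgeR's glmTreat against a fold of 1.2. A fit without both control replicate 1 and overexpression replicate 3 was added after seeing the data. Gene positions and UTRs are from GENCODE release 29, matched by symbol. The UTR was taken from the transcript with the best APPRIS principal rank and then the longest UTR. UTRs of like length are those of 0.8 to 1.25 times the length. No protein sequences were used here.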

Additional observations from a re-analysis of the deposited data

How the results depend on the processing

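IGF2BP3, HMGA2 and GPC3 kept their direction and their call in all 20 alternatives run. LIN28B kept its direction in all 20 and its call in 19, the exception being the test against a fold of 1.2. The number of the 8 genes called was 3 to 5 against 4, and 4 to 5 when single libraries were left out. The log2 fold change of IGF2BP3 was 2.47 to 2.67 when single libraries were left out. The number of list genes called was 68, and it was 12 with glmTreat against a fold of 1.2 and 44 at an adjusted p under 0.01, both stricter by construction. It was 56 to 62 when single libraries were left out. Over all genes 6698 were called, 4293 at an adjusted p under 0.01 and 2048 with glmTreat.

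IGF2BP2, which never passed, changed sign: its log2 fold change was 0.0079 without a filter, 0.030 and 0.036 on the FPKM scales (pseudocounts 1 and 0.1), and 0.0091, 0.0010 and 0.0061 without control replicate 1, overexpression replicate 1 or overexpression replicate 2 (−0.0533 to 0.0091 when single libraries were left out). GPC6, which did not pass either, was at −0.047 without both outlying libraries. The cause was not tested. From CPM, which are not scaled by length, the HMGA2 share changed by −3.62 and the GPC3 share by −9.675 percentage points, against −0.674 and −7.17 from FPKM. When single libraries were left out, the change in share was 40.1 to 42.4 points for IGF2BP3, −0.782 to −0.551 for HMGA2 and −7.84 to −6.77 for GPC3.

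With the replicate number as a block, 4 of the 8 genes and 70 list genes were called, and IGF2BP3 had a log2 fold change of 2.57. The block changed no call among the 8 genes. Deviations of same-numbered libraries correlated at 0.09, −0.04 and 0.08. Control replicates 1 and 3 correlated best with the library of the same number, and control replicate 2 with overexpression replicate 3. These values are small and cannot decide whether libraries are paired. The labels do not say that the numbers pair libraries, so they are not taken as pairs. Depth limits CD44: 1 count is 0.0267 to 0.0298 CPM, and its 4 to 9 counts a library allow no test of a moderate change.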
